A study of Triticum aestivum with 2 samples.

Results

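The MNase hypersensitive sites (MHSs) of the homoeologous group 2 chromosomes of common wheat, 2A, 2B and 2D, were described in spikelets and seedlings. All peaks that the deposited lists place on these 3 chromosomes were taken, with no threshold of any kind. They were 46023 of 277119 MHSs in the spikelet list and 47529 of 289446 MHSs in the seedling list, and the rest lay on the other 18 chromosomes. The study profiled open chromatin in wild-type plants of the cultivar Chinese Spring (CS), in spikelets at the booting stage and in whole seedlings that the sample labels give an age of 10 days. Both materials were cross-linked, and neither was treated. Nuclei were digested lightly with micrococcal nuclease (MNase), and the short fragments released were sequenced, a method called MH-seq. The reads of 2 biological replicates per tissue were merged before peaks were called, which left 1 list per tissue. No spread between replicates can therefore be given, and the tissues are compared without a test. Both materials mix many cell types, so that openness in fewer cells and weaker openness in every cell cannot be told apart. The tissue labels were not checked against marker genes, because no gene annotation of the build of these lists was used here.

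Common wheat is an allohexaploid whose A, B and D subgenomes come from related grasses, so that most genes on 2A have a homoeologous copy on 2B and on 2D, largely in the same order. Group 2 is known to carry the Ppd-1 loci, pseudo-response regulators that set the response of flowering to day length. Genes of wheat are concentrated towards the chromosome ends, and the middle of each chromosome is gene-poor and rich in transposable elements. MNase cuts DNA that is free of tightly held nucleosomes, so that an MHS marks a place where regulatory proteins may reach the DNA. Positions are given on version 1.0 of the IWGSC reference sequence. In this sequence each chromosome is split into 2 parts, and base coordinates count from the start of a part. Positions in Mb count along the whole chromosome, with part 2 set after part 1 and each part taken to end at its last MHS over both lists. No sequence is shown, as no genome of this build was used here.

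The 3 homoeologs held similar numbers of MHSs on chromosomes of unequal length. Chromosome 2D had 14893 MHSs in the spikelet and 15048 in the seedling over 652 Mb. Chromosome 2A had 14912 and 15664 over 781 Mb, and 2B had 16218 and 16817 over 801 Mb. The shortest homoeolog was thus the densest. There were 22.8 spikelet and 23.1 seedling MHSs per Mb on 2D, 20.2 and 21 on 2B, and 19.1 and 20.1 on 2A. In every other homoeologous group the D chromosome was also the shortest and the densest. Its density ranged from 19.1 on 4D to 23.8 on 5D in the spikelet, and from 19.5 to 24.5 in the seedling. A higher density on the D chromosome was thus not particular to group 2. The density of 2D was 1.2 times that of 2A in the spikelet and 1.15 times in the seedling, while its number was 0.999 and 0.961 times that of 2A. The density of 2B was 1.06 and 1.05 times that of 2A. Among all 21 chromosomes, 2D ranked 4 in the spikelet and 5 in the seedling by density, 2B ranked 7 in both and 2A ranked 12 in both. By number, 2B ranked 1 in both lists. Taken as a group, the 3 chromosomes had 20.6 spikelet and 21.3 seedling MHSs per Mb, against 19.5 and 20.4 on the other 18 chromosomes.

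Among all deposited MHSs the spikelet list was shorter on every homoeolog, but by unequal amounts. The number of spikelet MHSs was 0.952 times that of seedling MHSs on 2A, 0.964 times on 2B and 0.990 times on 2D. Over the other 18 chromosomes it was 0.955 times. The D chromosome had the highest ratio in every other homoeologous group as well, from 0.966 on 6D to 0.991 on 1D. The order of the tissues turned at a stricter threshold. The q of an MHS is the peak caller's p-value adjusted for the number of places tested. Up to a q of 1e-05, the spikelet had 12221 MHSs and the seedling 10472 on 2A, 13156 and 11318 on 2B, and 12080 and 10223 on 2D. The MHSs themselves were alike on the 3 chromosomes. Their median width was 338 bp in the spikelet and 356 bp in the seedling on 2A, 338 and 355 bp on 2B, and 339 and 360 bp on 2D. The fold of an MHS is the peak caller's ratio of the reads piled up at the summit plus 1 to the reads expected from the local background plus 1. Its median was 4.48 in the spikelet and 4.07 in the seedling on 2A, 4.47 and 4.04 on 2B, and 4.40 and 4.07 on 2D. The pileup and the background were recovered from the fold and the p-value of each MHS. The median pileup was 31.0 reads in the spikelet on each homoeolog, and in the seedling 26.0 reads on 2A and 2B and 27.0 on 2D.

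In bins of 10 Mb, all 3 homoeologs followed the same course, dense at both ends and sparse at about 30% to 45% of the length. On 2A the spikelet bins held between 40 MHSs at 240 to 250 Mb and 570 at 10 to 20 Mb, and the seedling bins between 57 at 330 to 340 Mb and 559 at 10 to 20 Mb. On 2B the extremes lay in the same bins in both lists. The bin at 340 to 350 Mb held 33 spikelet and 58 seedling MHSs, and the bin at 790 to 800 Mb held 469 and 509. On 2D the spikelet bins ranged between 46 at 220 to 230 Mb and 508 at 630 to 640 Mb, and the seedling bins between 58 at 210 to 220 Mb and 529 at 640 to 650 Mb. The highest bin was at the start of 2A but at the far end of 2B and 2D. Among all deposited MHSs the span was wider in the spikelet. The highest spikelet bin held 14.2 times the lowest on 2A, 14.2 times on 2B and 11 times on 2D. In the seedling the highest bin held 9.81, 8.78 and 9.12 times the lowest. The seedling excess in the sparsest 50 Mb was lost at a q of 1e-05 or lower, as described below. Sparse bins were most frequent on 2A. A density below 50% of the chromosome mean was seen in 20 spikelet and 14 seedling bins of 78 on 2A, in 9 and 9 of 80 on 2B, and in 10 and 8 of 65 on 2D. The final bin of each chromosome, shorter than 5 Mb, was left out.

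**Figure D1:**
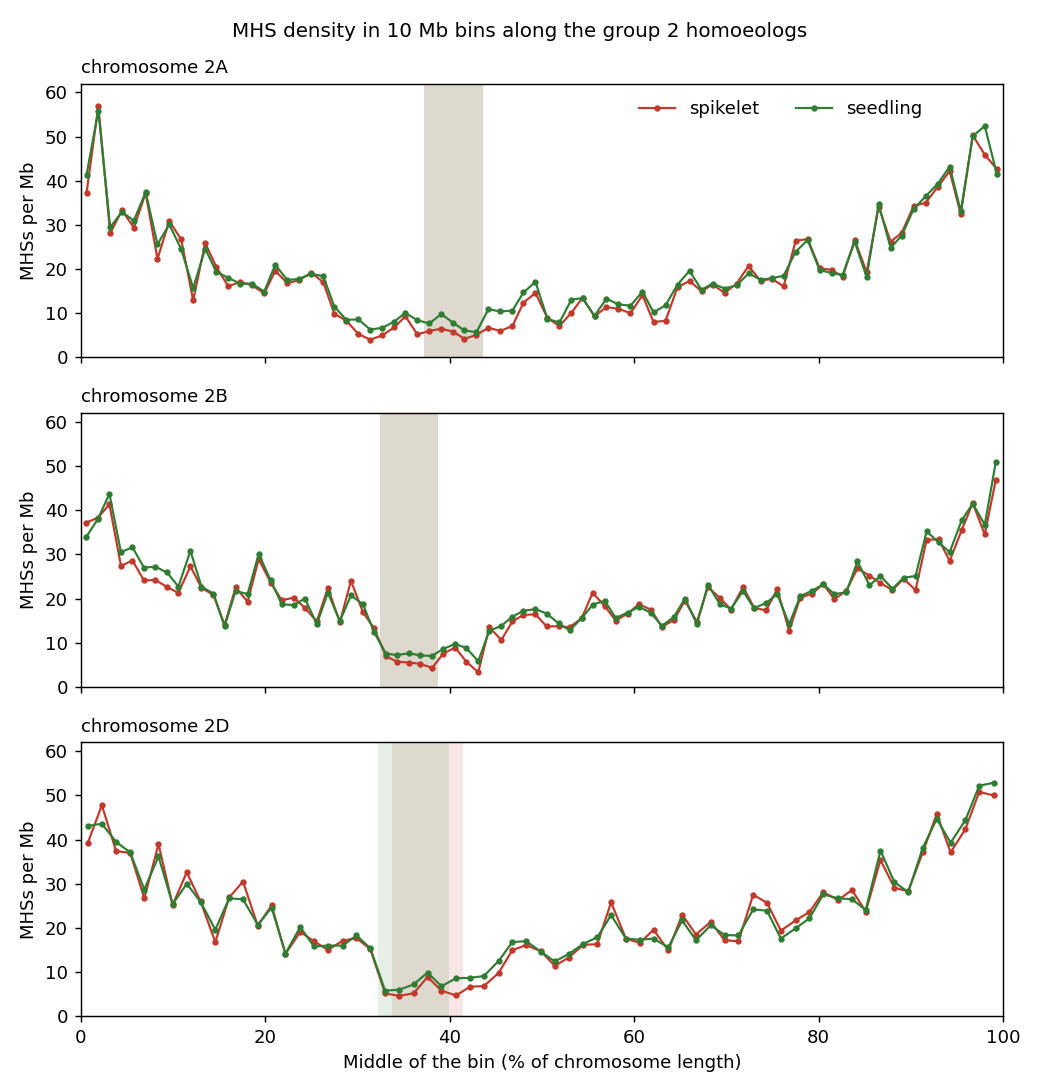
MHS density (MHSs per Mb) in 10 Mb bins against the middle of the bin in percent of chromosome length, for 2A, 2B and 2D, with spikelet in red and seedling in green. The shaded span is the lowest-density 50 Mb of each list (grey-brown where both lists share it). The lowest spikelet bin of 2D, with 46 MHSs, lies in it. Those of 2A, with 40 MHSs at 240 to 250 Mb, and of 2B, with 33 at 340 to 350 Mb, lie outside it.

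The profiles of the lists and of the homoeologs were close. Across bins, the number of spikelet MHSs correlated with the number of seedling MHSs with r = 0.99 on 2A (78 bins), 0.98 on 2B (80 bins) and 0.99 on 2D (65 bins). With each chromosome divided into 50 steps of 2% of its length, the spikelet profile of 2A correlated with that of 2D at r = 0.93 and with that of 2B at r = 0.87, and 2B correlated with 2D at r = 0.93. The seedling values were 0.94, 0.89 and 0.95. These coefficients describe neighbouring bins of the same chromosomes, all of which share the slope from the ends to the middle, so that no p-value is given. More spikelet than seedling MHSs were found in 22 of 78 bins on 2A, 23 of 80 on 2B and 23 of 65 on 2D. The ratio of spikelet to seedling MHSs was lowest in the sparse region on all 3 homoeologs, with 0.577 at 350 to 360 Mb on 2A, 0.569 at 340 to 350 Mb on 2B and 0.547 at 260 to 270 Mb on 2D. Its highest values were 1.1 at 600 to 610 Mb on 2A, 1.16 at 230 to 240 Mb on 2B and 1.15 at 110 to 120 Mb on 2D.

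The share of MHSs at the chromosome ends set 2A apart from 2B. The outermost 10% at either end, together 20% of the length, held 39.1% of the spikelet MHSs (95% Wilson interval 38.3 to 39.9) and 38.3% of the seedling MHSs (37.6 to 39.1) on 2A. On 2B they held 32.4% (31.7 to 33.1) and 32.9% (32.2 to 33.7), and on 2D 35.3% (34.6 to 36.1) and 35.6% (34.8 to 36.3). These intervals cover counting error only. The shares differed more among the homoeologs than between the tissues. MHSs are not replicates of a chromosome or a tissue. The 2 lists also share most of their MHSs, so that the intervals test neither contrast. Over the group the share was 35.5% in the spikelet and 35.6% in the seedling, against 33.1% and 33.3% on the other 18 chromosomes. Chromosome 2A ranked 1 of 21 in both lists, and 2B ranked 16 in both. This rank of 2A depended on how an end was defined and which MHSs were counted. It was 3 in the spikelet and 4 in the seedling with the outermost 5%, 3 in both with 20%, and 9 and 11 with a fixed 50 Mb, and it was 2 in both for MHSs with a q of at most 1e-05. The order of the homoeologs also turned with a fixed 50 Mb at either end, which held 27.8% of the spikelet and 28.3% of the seedling MHSs on 2D, against 26.7% and 26.3% on 2A and 22.4% and 22.5% on 2B.

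The high share of 2A came with a sparse middle, not with the densest ends. The middle 80% of 2A had 14.5 spikelet and 15.5 seedling MHSs per Mb, against 17.1 and 17.6 on 2B and 18.5 and 18.6 on 2D. By the density of the middle, 2A ranked 18 in the spikelet and 17 in the seedling among 21 chromosomes, 2B ranked 8 in both and 2D ranked 5 and 6. The ends were densest on 2D. The start of 2D had 37.1 MHSs per Mb in both lists, that of 2A had 34.1 in the spikelet and 35.3 in the seedling, and that of 2B had 30.5 and 32.2. The far end was denser than the start on every homoeolog, with 43.6 spikelet and 45 seedling MHSs per Mb on 2D, 40.6 and 41.6 on 2A, and 35.1 and 36.9 on 2B. The other 18 chromosomes together had the same direction, with 35.0 and 37.1 at the far end and 29.7 and 31.0 at the start. The far end of 2D ranked 2 of 21 in both lists.

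**Figure D2:**
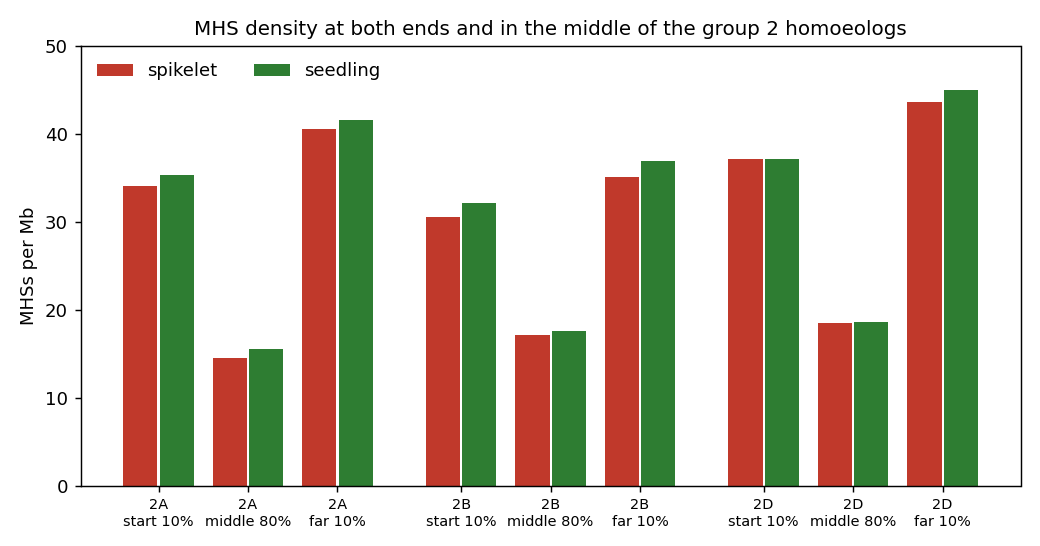
MHS density (MHSs per Mb) in the outermost 10% at the start, the middle 80% and the outermost 10% at the far end of 2A, 2B and 2D, with spikelet bars in red left of seedling bars in green. The far end is the tallest on each homoeolog, up to 45 per Mb on 2D in the seedling, and the middle of 2A is the lowest at 14.5 per Mb in the spikelet.

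The course within the ends differed among the homoeologs when counted in steps of 5 Mb. At the start of 2A the spikelet list held 226 MHSs in the outermost step, 146 in the next, 259 at 10 to 15 Mb, 311 at 15 to 20 Mb and 122 at 20 to 25 Mb. The seedling list held 243, 171, 265, 294 and 125 in the same steps. The start of 2A thus had a peak at 10 to 20 Mb with a sharp inner edge in both lists. A similar peak lay slightly closer to the start of 2D, where the steps from 0 to 20 Mb held 136, 256, 312 and 166 spikelet MHSs and 157, 274, 281 and 155 seedling MHSs. The start of 2B had no peak of that height. Its 6 outermost steps held between 174 and 208 spikelet MHSs and between 165 and 230 seedling MHSs. The numbers then fell from 205 and 230 at 25 to 30 Mb to 140 and 150 at 30 to 35 Mb, an inner edge further in than on 2A. At the far end, the outermost step was the densest on 2B, with 265 spikelet and 280 seedling MHSs, while on 2A the outermost step held 195 and 182 and the densest lay further in, with 256 at 20 to 25 Mb in the spikelet and 272 at 15 to 20 Mb in the seedling.

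**Figure D3:**
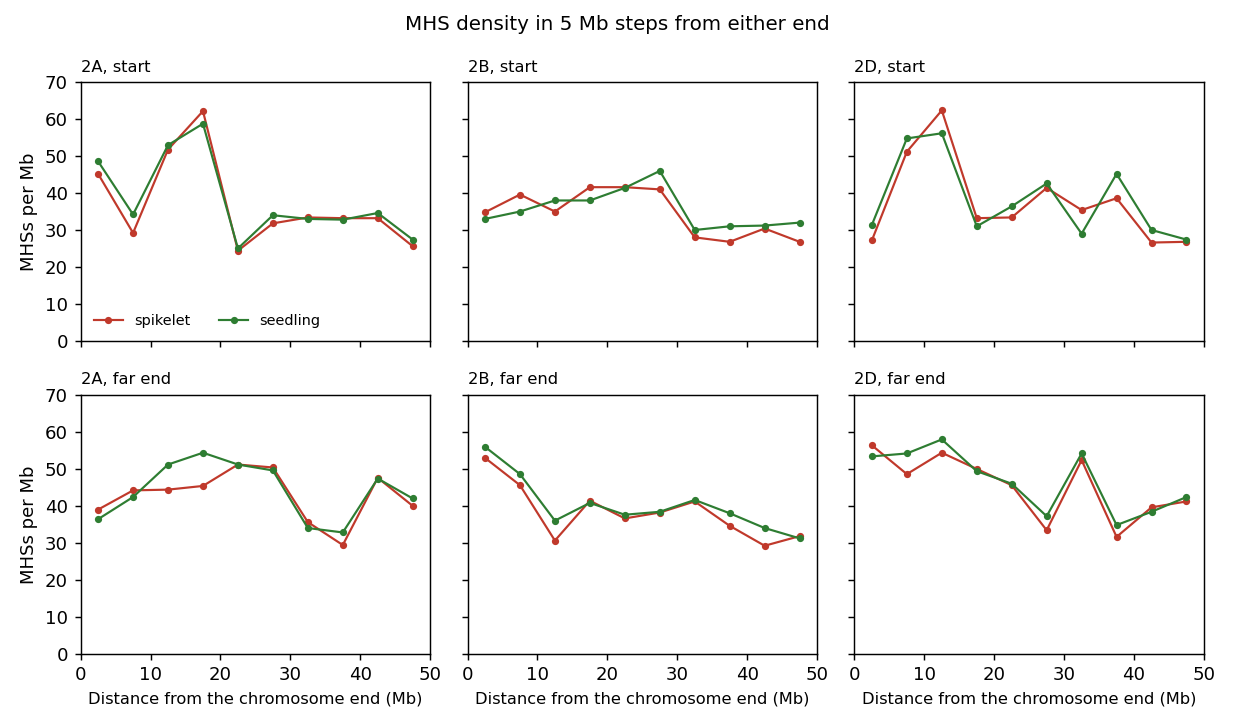
MHS density (MHSs per Mb) in 5 Mb steps against the distance from the start (upper row) and from the far end (lower row) of 2A, 2B and 2D, in Mb, with spikelet in red and seedling in green. The starts of 2A and 2D have a peak of 62.2 and 62.4 spikelet MHSs per Mb at 15 to 20 Mb and 10 to 15 Mb, and the start of 2B stays between 33.0 and 46.0 in both lists over its 6 outermost steps.

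The densest windows of 1 Mb lay close to an end on every homoeolog, and they were chosen for their counts, so that their values are a description. On 2A the densest was the same in both lists, at 16 to 17 Mb, with 100 spikelet and 84 seedling MHSs. That was 5.23 times the mean of the chromosome in the spikelet and 4.19 times in the seedling. It was followed in the spikelet by 775 to 776 Mb with 86 and by 14 to 15 Mb with 78, and in the seedling by 15 to 16 Mb with 81 and by 765 to 766 Mb with 78. On 2D the densest spikelet window was at 13 to 14 Mb, with 96 spikelet MHSs, and it was the next densest in the seedling with 77. These windows of 2A and 2D lay at 2.11% and 2.07% of the length. The other windows named on 2D were at 649 to 650 Mb with 85 spikelet and 77 seedling MHSs, at 643 to 644 Mb with 80 and 71, and at 639 to 640 Mb with 72 and 80, the last being the densest in the seedling. On 2B the windows were lower. The densest in the spikelet was at 785 to 786 Mb with 75 spikelet and 64 seedling MHSs, and the densest in the seedling at 794 to 795 Mb with 71 and 69. The remaining windows named on 2B were at 793 to 794 Mb with 72 spikelet and 66 seedling MHSs and at 23 to 24 Mb with 70 and 65. The window at 23 to 24 Mb, at 2.93% of the length, was the densest at the start of 2B in both lists.

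The densest windows differed in how many of their MHSs had no MHS of the other list on the same bases. At 16 to 17 Mb on 2A these were 39 of 100 spikelet MHSs (39%) and 22 of 84 seedling MHSs (26.2%), and at 13 to 14 Mb on 2D 41 of 96 (42.7%) and 23 of 77 (29.9%). On 2B the share was highest at 793 to 794 Mb, with 37 of 72 (51.4%) and 31 of 66 (47.0%), while it was 23 of 75 (30.7%) and 16 of 64 (25.0%) at 785 to 786 Mb and 18 of 71 (25.4%) and 16 of 69 (23.2%) at 794 to 795 Mb. Over whole chromosomes the shares were 31.2% in the spikelet and 36.3% in the seedling on 2A, 32.4% and 36.3% on 2B, and 32.4% and 34.8% on 2D. Over all windows named on the 3 homoeologs the share ranged from 24.3% to 51.4% in the spikelet and from 19.5% to 47.0% in the seedling, on either side of these chromosome shares. The median window held 15 spikelet and 16 seedling MHSs on 2A, 18 and 19 on 2B, and 20 and 20 on 2D. Windows with 50 or more MHSs numbered 42 in the spikelet and 38 in the seedling on 2D, 33 and 34 on 2A, and 24 and 22 on 2B, although 2B is the longest. The MHSs of 2A were the most concentrated, with 26.8% of the spikelet and 25.6% of the seedling MHSs in the densest 10% of windows, against 24.1% and 23.4% on 2D and 23.1% and 21.9% on 2B. At a scale of 100 kb, the densest window of 2A was interior, at 565.0 to 565.1 Mb, with 23 spikelet and 19 seedling MHSs. That of 2B was at 785.2 to 785.3 Mb in both lists, with 24 and 20.

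The lowest-density interval, the 5 neighbouring bins of 10 Mb with the fewest MHSs, covered 290 to 340 Mb on 2A and 260 to 310 Mb on 2B in both lists. On 2D it covered 220 to 270 Mb in the spikelet and 210 to 260 Mb in the seedling. All of them lay before the midpoint of the chromosome. As a share of the length these intervals ran from 37.2% to 43.6% on 2A, from 32.4% to 38.7% on 2B, and on 2D from 33.8% to 41.4% in the spikelet and from 32.2% to 39.9% in the seedling. The interval held 276 spikelet and 371 seedling MHSs on 2A, 276 and 364 on 2B, and 292 and 357 on 2D. Its density was nearly the same on the 3 homoeologs, with 5.52, 5.52 and 5.84 spikelet MHSs per Mb and 7.42, 7.28 and 7.14 seedling MHSs per Mb on 2A, 2B and 2D. The lowest intervals of the other 18 chromosomes ranged from 4.44 to 6.80 in the spikelet and from 6.68 to 9.34 in the seedling, and those of group 2 fell within these ranges. Relative to the chromosome mean, the interval of 2D was the lowest, at 0.256 times in the spikelet and 0.309 times in the seedling, against 0.273 and 0.347 times on 2B and 0.289 and 0.370 times on 2A.

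Among all deposited MHSs, the extent of the low region differed between the lists on 2A. The unbroken stretch of bins below 50% of the chromosome mean around the interval ran from 220 to 370 Mb on 2A in the spikelet, 150 Mb with 913 MHSs, and from 280 to 340 Mb in the seedling, 60 Mb with 455 MHSs. On 2B it ran from 260 to 350 Mb in both lists, with 530 spikelet and 693 seedling MHSs. On 2D it ran from 210 to 300 Mb with 577 MHSs in the spikelet and from 210 to 290 Mb with 621 in the seedling. The stretch of 2A was thus the longest of the 3 in the spikelet. In the seedling it was the shortest, but it was cut by the bin at 270 to 280 Mb. That bin had 10.1 MHSs per Mb, just above 50% of the chromosome mean of 20.1. The seedling bins from 220 to 270 Mb, with 63 to 86 MHSs each, were again below 50% of the mean. The longest distance without a spikelet MHS lay in or beside the low region on all 3 homoeologs. On part 1 of 2A it ran from 247244587 to 249619134, or 2375 kb, on part 1 of 2B from 343203785 to 345659595, or 2456 kb, and on part 1 of 2D from 268912989 to 270412885, or 1500 kb. These stretches held 9, 11 and 8 seedling MHSs. The longest distances without a seedling MHS were 1218 kb on part 1 of 2A, from 404939806 to 406158041, with 0 spikelet MHSs, 2014 kb on part 1 of 2B, from 270447632 to 272461566, with 1, and 1504 kb on part 1 of 2D, from 226890270 to 228394009, with 1. The longest empty stretches of the spikelet thus held more MHSs of the other tissue than those of the seedling on each homoeolog. This contrast rests on a single stretch per list and homoeolog among all deposited MHSs. It was not examined at a stricter q. Distances of 300 kb or more numbered 592 in the spikelet and 504 in the seedling on 2A, 527 and 424 on 2B, and 398 and 375 on 2D.

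A tissue-only MHS was defined as an MHS that shared no base with any MHS of the other list. On group 2, 14737 spikelet MHSs, or 32% (31.6 to 32.4), and 17040 seedling MHSs, or 35.9% (35.4 to 36.3), were tissue-only. The shares over all 21 chromosomes were 32.6% in the spikelet and 37.0% in the seedling, so that group 2 lay close to the background and slightly below it. Between the homoeologs the shares differed little. In the spikelet list they were 31.2% on 2A (30.5 to 32), 32.4% on 2B (31.7 to 33.1) and 32.4% on 2D (31.6 to 33.1). In the seedling list they were 36.3% on 2A (35.6 to 37.1), 36.3% on 2B (35.6 to 37.1) and 34.8% on 2D (34.1 to 35.6). The gap between the tissues was thus narrowest on 2D, which ranked 20 of 21 chromosomes by the seedling-only share, while 2A ranked 20 of 21 by the spikelet-only share. In every other homoeologous group, too, the D chromosome had the lowest seedling-only share, from 34.5% on 4D to 37.4% on 7D, and the narrowest gap. The place of 2D was thus not particular to group 2. The orders within group 2 held for all deposited MHSs only. Up to a q of 1e-05 in either list, the spikelet-only share was the higher one, with 34.8% against a seedling-only share of 25.7% on 2A, 35.6% against 26.7% on 2B and 36.0% against 25.9% on 2D, and the gap was widest on 2D.

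Tissue-only MHSs were more frequent at the ends than in the middle 80% on every homoeolog. In the spikelet, 35.2% of the MHSs at the ends and 28.7% in the middle of 2A were tissue-only, 35.7% and 30.9% on 2B, and 35.5% and 30.7% on 2D. In the seedling the shares were 38.1% and 35.2% on 2A, 40.1% and 34.5% on 2B, and 38.2% and 33.0% on 2D. The other 18 chromosomes had 36.6% at the ends and 30.8% in the middle in the spikelet, and 40.8% and 35.4% in the seedling, a difference of the same direction. Per 10 Mb bin, the seedling-only share reached its maximum in the sparse region, with 70.5% at 320 to 330 Mb on 2A, 69.0% at 340 to 350 Mb on 2B and 61.6% at 260 to 270 Mb on 2D. The spikelet-only share was highest in the same bin on 2A, with 54.8%, but at 0 to 10 Mb on 2B, with 48.7%, and at 270 to 280 Mb on 2D, with 47.8%. The lowest shares of a bin were 20.0% in the spikelet and 26.0% in the seedling on 2A, 19.6% and 21.7% on 2B, and 20.4% and 21.6% on 2D.

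**Figure D4:**
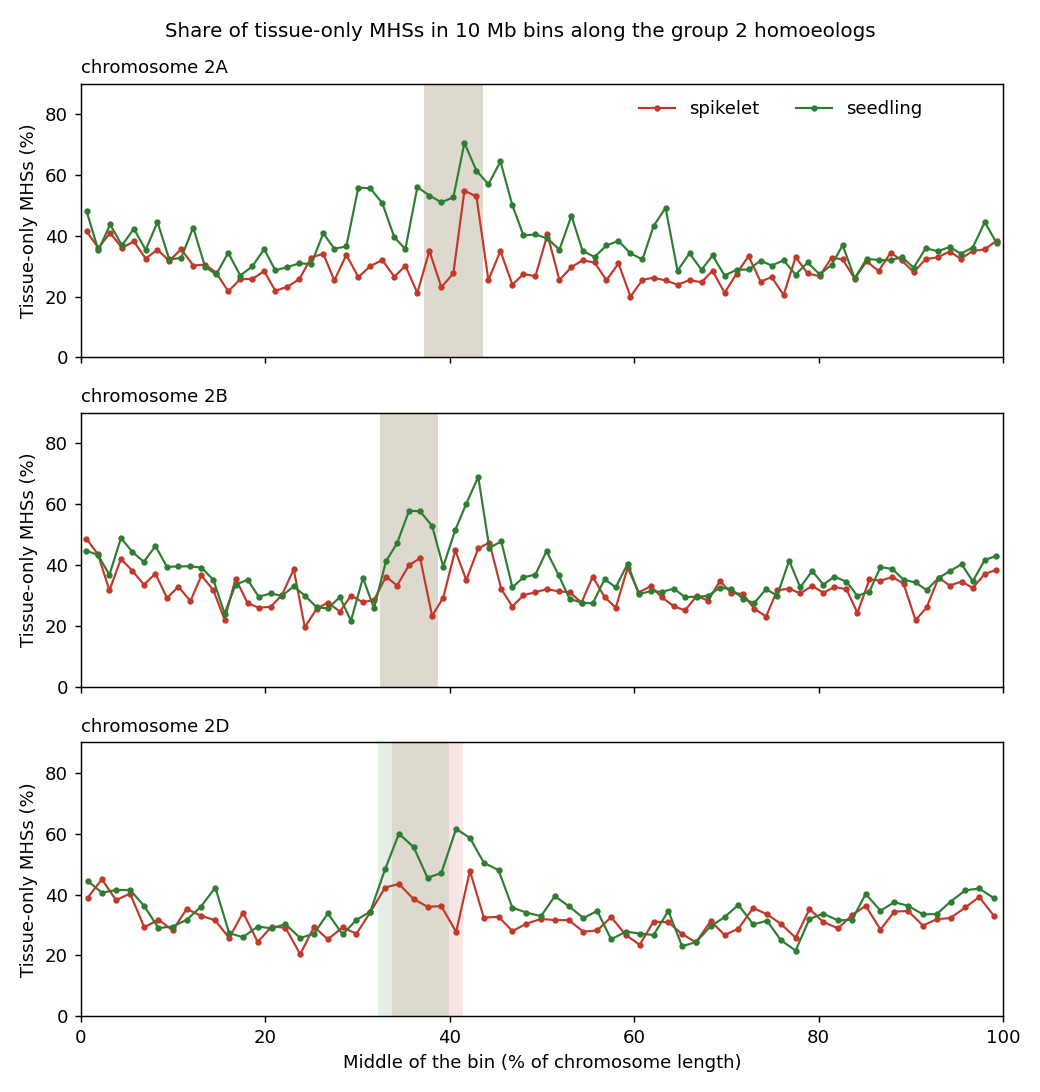
Share of tissue-only MHSs (%) in 10 Mb bins against the middle of the bin in percent of chromosome length, for 2A, 2B and 2D, with spikelet in red and seedling in green and the lowest-density 50 Mb shaded. The seedling share reaches 70.5% on 2A within the shaded span, and 61.6% on 2D in the part shaded for the spikelet list only. On 2B it reaches 69.0% at 340 to 350 Mb, beyond the shaded span. In each of these bins the spikelet share is lower.

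Tissue-only MHSs were weaker than the MHSs shared by both lists. Their median fold was 3.83 against 4.96 in the spikelet and 3.53 against 4.64 in the seedling on 2A, 3.86 against 4.93 and 3.54 against 4.61 on 2B, and 3.78 against 4.84 and 3.54 against 4.59 on 2D. On the other 18 chromosomes these medians were 3.85 against 4.95 and 3.55 against 4.62, close to those of group 2. They were also narrower, with medians over the group of 277 against 376 bp in the spikelet and 279 against 409 bp in the seedling. With each list divided into deciles by fold, 55.3% of the group 2 MHSs in the lowest decile and 6.76% in the highest were tissue-only in the spikelet, and 59.3% and 2.26% in the seedling. In both lists the share fell steadily over the upper deciles, down to 10.1% in the spikelet and 5.73% in the seedling in the decile below the highest. A tissue-only spikelet MHS lay a median of 2.75 kb from the nearest seedling MHS on 2A, 2.93 kb on 2B and 2.58 kb on 2D. A tissue-only seedling MHS lay 5.81, 5.81 and 5.06 kb from the nearest spikelet MHS.

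In the lowest-density interval the seedling list exceeded the spikelet list more than elsewhere. Within the interval of the seedling, spikelet MHSs numbered 0.744 times the seedling MHSs on 2A, 0.758 times on 2B and 0.832 times on 2D. On the rest of the same chromosomes the ratios were 0.957, 0.969 and 0.994. The other 18 chromosomes had ratios from 0.569 on 1A to 0.873 on 6B inside and from 0.935 on 4A to 0.999 on 1D outside, and group 2 lay within these ranges. Inside the interval, 56.6% of the seedling MHSs (51.5 to 61.6) were seedling-only on 2A, 51.4% (46.3 to 56.5) on 2B and 50.7% (45.5 to 55.9) on 2D, against 35.8%, 36.0% and 34.5% outside. The other 18 chromosomes had 54.6% inside and 36.7% outside. Inside the lowest interval of the spikelet list itself, the spikelet-only share was 37.0% (31.5 to 42.8) on 2A, 35.5% (30.1 to 41.3) on 2B and 36.3% (31.0 to 42.0) on 2D, against 31.1%, 32.4% and 32.3% outside, with 35.0% inside and 32.7% outside on the other 18 chromosomes. Its intervals included the outside value on 2B and 2D, but not on 2A.

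The seedling-only MHSs of the interval had few reads over a low background. They numbered 210 on 2A, 187 on 2B and 181 on 2D, and their median pileup was 14.0, 15.0 and 14.0 reads. The MHSs of the same intervals that both lists shared had a median seedling pileup of 32, 33.0 and 33.0 reads. By fold, the seedling-only MHSs were close to those outside, with medians of 3.57, 3.47 and 3.57 inside and 3.53, 3.54 and 3.54 outside. The shared MHSs inside had higher median seedling folds of 5.48, 5.18 and 4.97. A local background within 10% of the lowest value of the seedling list was found for 51.0%, 40.6% and 55.2% of the seedling-only MHSs inside, against 25.1%, 22.9% and 22.2% of those outside. A q of 1e-05 or lower was reached by 24.8%, 25.7% and 22.1% inside, against 36.7%, 38.2% and 38.9% outside. Inside, the seedling-only MHSs lay a median of 49.0 kb on 2A, 22.5 kb on 2B and 34.4 kb on 2D from the nearest spikelet MHS. The interval was chosen for its few MHSs, so that these distances are a description. The seedling-only MHSs in the lowest intervals of the other 18 chromosomes were alike, with a median pileup of 14.0 reads and 47.9% near the lowest background. Of them, 24.4% had a q of 1e-05 or lower, and their median distance was 49.9 kb. Few reads and a low background were not particular to the seedling. In the spikelet-only MHSs, too, the median pileup was lower inside the spikelet interval than outside on each homoeolog. A background near the lowest was found for 40.2%, 31.6% and 48.1% inside on 2A, 2B and 2D, against 13.7%, 13.9% and 11.7% outside. A q of 1e-05 or lower was reached by 46.1%, 49.0% and 34.9%, against 66.2%, 65.3% and 65.8%.

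The excess of seedling MHSs in the interval was lost at a stricter threshold. When MHSs with a q above 1e-05 were left out of either list, the interval held 206 spikelet and 192 seedling MHSs on 2A, 213 and 204 on 2B, and 205 and 202 on 2D. These counts gave ratios of 1.07, 1.04 and 1.01, with 1.17, 1.16 and 1.19 outside. The ratio inside was still below the ratio outside on each homoeolog, but no longer below 1. No counting interval was computed for these ratios, which rest on few MHSs inside. At this threshold 28.1% of the seedling MHSs inside were tissue-only on 2A, 27.0% on 2B and 26.7% on 2D. The shares outside were close, at 25.7%, 26.7% and 25.9%. The spikelet-only share in the lowest interval of the spikelet list was now lower inside than outside, with 29.6% (23.8 to 36.2) against 34.8% on 2A, 29.6% (23.9 to 36.0) against 35.7% on 2B and 23.9% (18.4 to 30.3) against 36.2% on 2D. The interval inside left out the outside value on 2D but not on 2A and 2B. The shares over all 21 chromosomes at this threshold were 36.2% in the spikelet and 26.6% in the seedling.

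**Figure D5:**
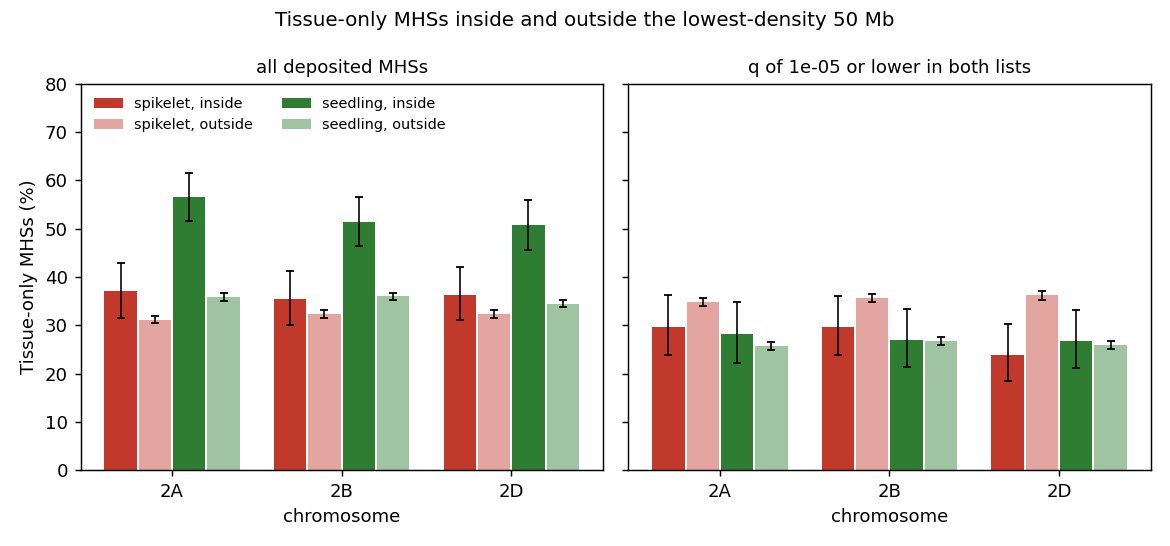
Share of tissue-only MHSs (%) inside (dark bars) and outside (light bars) the lowest-density 50 Mb of each list on 2A, 2B and 2D, in the spikelet (red) and the seedling (green), for all MHSs (left) and for those with a q up to 1e-05 (right), with 95% Wilson intervals. The seedling bars inside stand at 50.7% to 56.6% on the left, above 34.5% to 36.0% outside, and at 26.7% to 28.1% on the right, next to 25.7% to 26.7% outside.

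Long unbroken runs of tissue-only MHSs were found on each homoeolog. The longest, with 33 spikelet MHSs and no seedling MHS among them, lay on part 1 of 2B from 357190415 to 357759375, or 569 kb. Its median fold was 3.78, and its median background was 1.02 times that of the whole spikelet list. The longest spikelet runs of 2D and 2A had a higher background. The run of 17 on part 1 of 2D, from 272363919 to 272811865, had a median fold of 2.64 at a background 4.63 times the list median, and the run of 12 on part 1 of 2A, from 335801949 to 335849918, had a median fold of 2.99 at 3.16 times. In the seedling the longest runs held 11 MHSs on 2A, 11 on 2B and 10 on 2D. The run of 2B lay on part 1 from 343343761 to 345470965, inside the longest stretch without a spikelet MHS, and the run of 2A from 344068690 to 344751357 on part 1. Their median backgrounds were 2.64 and 2.66, or 0.482 and 0.485 times the list median. The lowest background of the seedling list was 2.64. The run of 2D, from 16012215 to 16153382 on part 1, had 0.974 times the list median. The part of the background in these runs was not tested. Chromosome 2A had another seedling run of the same length.

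MHSs that overlapped a single MHS of the other list, which in turn overlapped no other, were paired to compare their folds. Group 2 had 29017 such pairs. Their median ratio of spikelet to seedling fold was 1.07 (quartiles 0.875 and 1.30), and the median ratio of pileups was 1.04. A spikelet fold at least 1.5 times the seedling fold was found in 3613 pairs, or 12.5%, the same as the 12.5% over all 21 chromosomes. A seedling fold at least 1.5 times the spikelet fold was found in 1752 pairs, or 6.04%, against 5.90% over all 21 chromosomes. Both shares of group 2 thus lay close to the background. The spikelet-higher share was 12.3% on 2A, 12.8% on 2B and 12.2% on 2D. The seedling-higher share was 5.72% on 2A (5.27 to 6.20), 5.75% on 2B (5.32 to 6.22) and 6.68% on 2D (6.19 to 7.20). The pair with the lowest ratio on 2D, 0.219, lay on part 2 at 176210507, with a fold of 3.85 at a pileup of 126 reads in the spikelet and a fold of 17.6 at 63 reads in the seedling. Its pileup was thus higher in the spikelet while its fold was lower.

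A fold of 12 or more was reached by 162 spikelet MHSs of group 2, or 0.352%, and by 84 seedling MHSs, or 0.177%. The shares over all 21 chromosomes were 0.363% and 0.220%. Of these strong MHSs, 38 in the spikelet, or 23.5%, and 0 in the seedling were tissue-only. Over all 21 chromosomes 272 of 1005, or 27.1%, and 2 of 636, or 0.314%, were tissue-only. On 2D there were 62 spikelet MHSs of this fold, 13 of them tissue-only, and 29 seedling MHSs. On 2B there were 56, of which 16 tissue-only, and 27, and on 2A 44, of which 9 tissue-only, and 28. A width of 1 kb or more was seen in 650 spikelet and 1165 seedling MHSs of group 2, or 1.41% and 2.45%, against 1.2% and 2.28% over all 21 chromosomes. The widest measured 3126 bp, on 2D in the spikelet.

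The strongest MHS of each list was not at the ends, except on 2A in the seedling. The strongest spikelet MHS of 2A, from 136687293 to 136687668 on part 1, had a fold of 34.6 with 183 reads over a background of 4.32. No seedling MHS lay nearer than 38.4 kb. A further spikelet MHS 5.61 kb away, with a fold of 7.49 and 26 reads, was likewise absent from the seedling list. The strongest seedling MHS of 2A, from 16095502 to 16096039 on part 1, had a fold of 18 with 74 reads and lay in the densest window of the chromosome. The spikelet MHS at the same place had a fold of 14.1 with 59 reads.

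On 2B the strongest MHS was the same site in both lists. It ran from 268767420 to 268767861 on part 1 in the spikelet, with a fold of 27.7 and 186 reads, and from 268767457 to 268767846 in the seedling, with a fold of 32.5 and 172 reads. This site lay inside the lowest-density interval of 2B. Its neighbour 10.3 kb away had a fold of 24.8 with 143 reads in the spikelet and 6.05 with 21 reads in the seedling, and the ratio of 4.11 was the highest of all pairs on 2B. The strongest site was thus similar in both lists, while its neighbour was not. On 2D the strongest spikelet MHS, from 437386876 to 437387254 on part 1, had a fold of 27.9 with 184 reads, against 4.67 with 16 reads in the seedling, and the ratio of 5.96 was the highest of all pairs on 2D. The strongest seedling MHS of 2D lay from 285521842 to 285522231 on part 1. At this site the spikelet had a fold of 8.43 with 141 reads over a background of 15.8, and the seedling had a fold of 21.4 with 117 reads over a background of 4.52. The spikelet thus had more reads but the lower fold, at the higher background.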

How the data were processed

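Reads were trimmed (fastp), aligned to the IWGSC reference sequence (Bowtie2), freed of duplicates (Sambamba) and filtered on mapping quality by the authors, who then merged 2 replicates per tissue and called peaks with MACS2 (2.0 in the submitters' processing notes). The lists deposited by the authors hold for each peak a score (the whole part of 10 times −log10 q), the fold, which is a ratio at the summit, the −log10 p-value and the −log10 q-value, and the distance of the summit from the peak start. Although the methods state a q of 0.01, the highest q on group 2 was 0.0421 in the spikelet and 0.0475 in the seedling. The depth of the libraries is not in the lists, and peak heights in reads were recovered from fold and p under a Poisson model, for all but 1 seedling MHS. All peaks were kept and assigned to bins by their midpoint. The named regions were, per list and homoeolog, the MHS with the largest fold, the lowest and highest bin, the 3 densest windows, the longest distance between MHSs and the longest run. The pairs with extreme ratios and the 100 kb windows were added after their values were seen. Members and rules were chosen with earlier results of these data known. Overlap, interval, window and recovery calculations were tested on simulated data. The tools were numpy 2.4.6, scipy 1.17.1 and pandas 2.3.3 under Python 3.11.15, with figures drawn in matplotlib 3.10.9. Alternatives covered the q threshold, the overlap, the width of the ends and the size and phase of bins and windows. Genes and sequences were not analysed here, since the gene table at hand belongs to another build.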

Additional observations from a re-analysis of the deposited data

How the results depend on the processing

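Of 169 alternatives tried, 75 left the value near the reported one (a number within 1.5 times, a share within its counting interval, a window that overlaps) and 94 did not. These counts do not measure stability. Ends of another width and other overlap rules change a share by definition, and the limit of 1.5 times for a number is wide. At a q of 1e-05 or lower the group held 37457 spikelet and 32013 seedling MHSs, so that the order of the tissues turned. The density of 2D stayed between 1.15 and 1.21 times that of 2A and the density of 2B between 1.04 and 1.06 times, and the lowest-density interval covered at least 50% of the reported one in 16 of 18 alternatives. It moved on 2A in the seedling, to a start of 225 Mb with 5 Mb bins, and on 2B in the seedling, to 300 Mb with a q of 1e-05 or lower. The densest window overlapped the reported one in 9 of 18, and on 2A in the spikelet it moved to 774.5 Mb when windows were shifted by 500 kb. The share at the ends was 19.9% in the spikelet and 19.8% in the seedling for the outermost 5%, 58.4% and 57.8% for 20%, and 25.6% in both for 50 Mb. In the seedling it was 34.4% at a q of 1e-05 or lower. The tissue-only share was 36.8% in the spikelet and 43.5% in the seedling with an overlap of 50% of the peak, 44.6% and 46.3% with 50% of both peaks, and 27.1% and 31.1% with MHSs within 500 bp counted as shared. It was 34.8% in the seedling at a q of 0.01 or lower. When both lists were limited to a q of at most 1e-05 it was 35.5% in the spikelet and 26.1% in the seedling, and here too the order of the tissues turned. The fold ratio of pairs was 1.07 with an overlap of 50% of both MHSs and 1.04 for pileups. The ratio of spikelet to seedling MHSs in the lowest-density interval turned at a q of 1e-05 or lower, to 1.07 on 2A, 1.04 on 2B and 1.01 on 2D. This alternative and those for the rank of 2A were chosen after seeing the data. The cause of these changes was not tested. No paired analysis was possible because the replicates of a tissue were merged into 1 list.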
